A study of Caenorhabditis elegans with 4 samples.

Results

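The genes described here code for enzymes that make, activate and break down fatty acids and for the proteins that carry them, in Caenorhabditis elegans kept with or without low-dose arsenite. They were chosen by name alone from the gene table: fat (desaturases), elo (elongases), acs (acyl-CoA synthetases), acdh (acyl-CoA dehydrogenases), ech (enoyl-CoA hydratases), lbp (lipid-binding proteins), lipl (lipases) and fard (fatty acyl-CoA reductase), each followed by a number. This gave 54 of the 19912 genes of the table, namely 7 fat, 9 elo, 7 acs, 13 acdh, 9 ech and 9 lbp genes. No gene carried a lipl or fard name. RNA came from whole adults of the wild-type strain N2, taken 48 h after the L4 stage (the last larval stage), in 4 libraries. The 2 arsenite libraries came from worms on agar plates with 100 nM arsenite, and the 2 control libraries from worms on plates of the same agar batch with water, the solvent, instead. Both groups fed on heat-inactivated OP50 E. coli, so arsenite was the stated difference between them. Whether the replicates are separate cultures is not given in the labels or the methods. The p-values and intervals therefore reflect the spread among these libraries alone, and that spread may be technical.

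In C. elegans, as in mammals, acetyl-CoA carboxylase and fatty acid synthase build saturated fatty acids, which elongases lengthen and desaturases provide with double bonds. The worm has the full set of desaturases for omega-6 and omega-3 polyunsaturated fatty acids and also makes branched-chain fatty acids, which its larvae need for growth. To be used or burned, a fatty acid is first joined to coenzyme A by an acyl-CoA synthetase; dehydrogenases and enoyl-CoA hydratases then catalyse the opening steps of beta-oxidation in mitochondria and peroxisomes. Most of this takes place in the intestine and the epidermis, where fat is stored, and lipid-binding proteins carry fatty acids within and between tissues. The intestine also exports lipid to the oocytes.

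Between 30583832 and 35218389 reads lay behind each library, as derived from the deposited counts and RPKM values. Gene counts summed to 44263387 to 50472338, in which reads shared by transcripts of a gene were counted more than once. The lipid genes held 0.655% and 0.665% of these counts with arsenite, against 0.683% and 0.670% in controls. No library stood apart (Pearson's r of log2 values between libraries 0.995 to 0.996 across genes, which are not independent replicates). Of the lists of cell type markers, those of intestine, germline with oocytes, body wall muscle, pharynx and neurons were all above 1 RPKM (reads scaled by the length of the transcript and the depth of the library), while the 5 sperm markers were all under 1 RPKM (gsp-3 and msp-142 at 0 in some libraries), and no marker was at 0 in all 4.

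With 100 nM arsenite for the time studied, none of the 50 lipid genes that could be tested passed the threshold, and the fitted levels of most were close to those of controls. The tested genes passed a filter on low counts, as 13776 genes of the table did. The untested ones were elo-7, elo-8, acdh-5 and acdh-8, each with a mean under 1 RPKM. edgeR's quasi-likelihood test called 0 lipid genes at an adjusted p (Benjamini-Hochberg over all genes tested) under 0.05, with a smallest adjusted p of 0.426, and it called 0.0% of all genes. edgeR's exact test also called 0, against 1.01% of all genes, with a smallest adjusted p of 0.152. edgeR's likelihood ratio test called 0 against 1.14%, and DESeq2 called 0 against 0.231%. At an unadjusted quasi-likelihood p under 0.05, 0 lipid genes were higher with arsenite, against 2.16% of all genes, and 3 were lower (elo-4, acdh-6 and acs-17), against 5.05% of all genes. In whole animals, fewer cells of a type and less RNA per cell cannot be told apart in any of these values.

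The intervals rest on the same spread among the libraries as the p-values. That spread may be technical, so the intervals bound a change for these libraries only. The 95% interval of the fold change lay wholly within 1.25-fold of controls, up or down, for 39 of the 50 genes (78.0%), against 48.5% of all genes tested. Within 1.5-fold it lay for 47 (94.0%), against 73.4% of all genes. The median log2 fold change was -0.0010 over the lipid genes and 0.0055 over all genes tested, with 24 lipid genes above 0 and 26 below. The median size of the log2 fold change, without its sign, was 0.026 for lipid genes and 0.080 for all genes. Neither these sizes nor the shares of intervals were matched for abundance. The median level was 71.6 RPKM for lipid genes and 11.9 RPKM for all genes tested, with median standard errors of 0.074 and 0.103. The median size of the log2 difference between the replicates of a group was 0.073 with arsenite and 0.082 in controls, where single libraries and not means of 2 are compared. In 10 lipid genes (20%, against 24.9% of all genes) the log2 fold change was larger than both differences between replicates; they are fat-6, elo-4, elo-9, acs-14, acs-17, acdh-6, acdh-13, ech-3, lbp-2 and lbp-3.

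**Figure D1:**
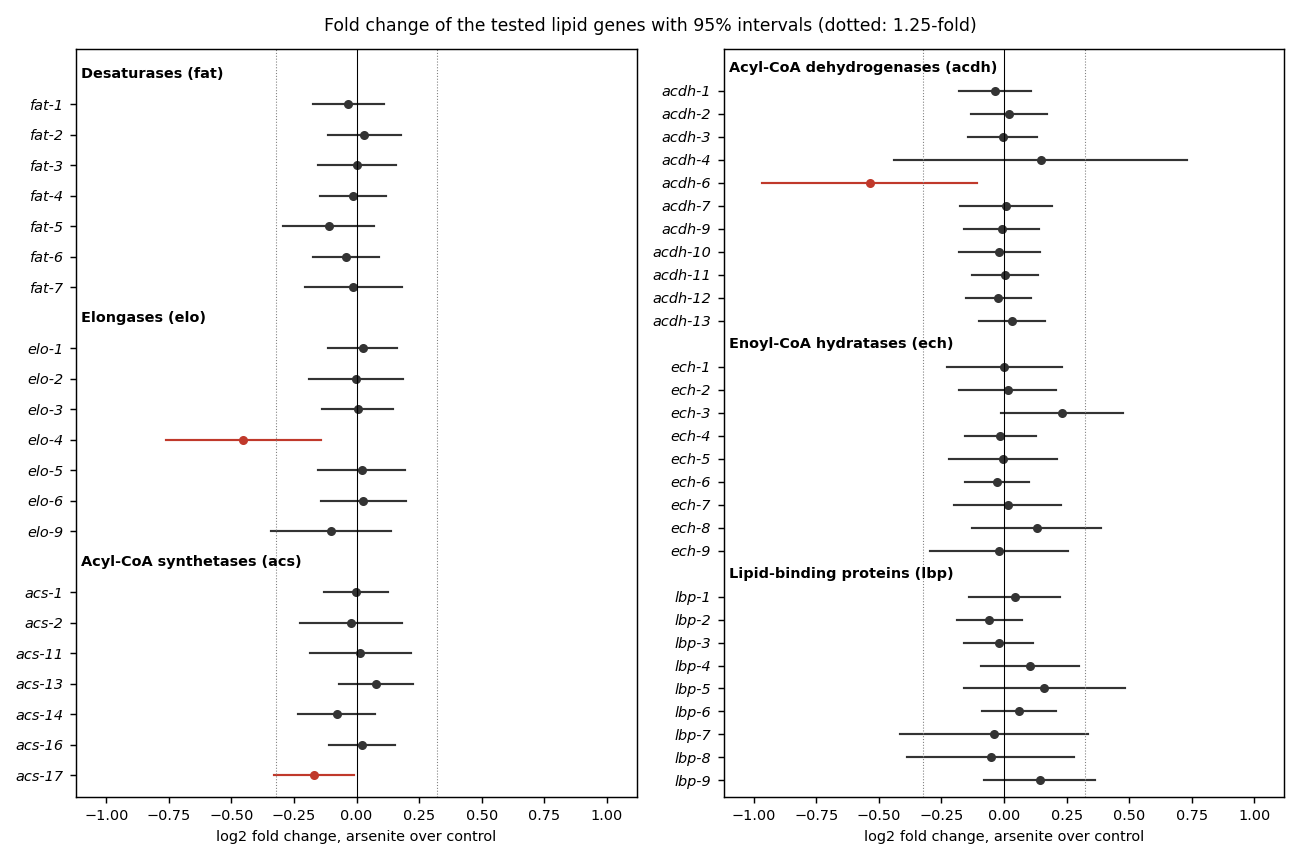
Fitted log2 fold change (arsenite over control, points) of the 50 tested lipid genes with 95% intervals (lines), by family; the solid line marks 0 and the dotted lines 1.25-fold, and red marks an unadjusted p under 0.05. Only elo-4, acs-17 and acdh-6 have intervals clear of 0, at -0.45, -0.17 and -0.54, and the widest interval is that of the weakly expressed acdh-4.

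The lipid genes were abundant. Their median level over the 4 libraries was 71.6 RPKM, against 11.9 RPKM for all genes tested, and 28 of the 54 were in the top 10% of the table by RPKM and 17 in the top 5%. A mean above 100 RPKM was reached by 20 of them. The levels were led by acdh-1, the dehydrogenase that opens the propionate shunt, at 713.0 and 705.6 RPKM with arsenite, against 773.8 and 725.7 RPKM in controls. Next came lbp-9, a lipid-binding protein, at 509.4 and 568.5 RPKM with arsenite, against 458.3 and 548.5 RPKM in controls. lbp-2, fat-2, elo-6, ech-6 and fat-1 followed, with means from 390.0 to 293.5 RPKM. Between the most and the least abundant tested gene the mean RPKM differed 633-fold, while within a gene the 4 libraries stayed close together.

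**Figure D2:**
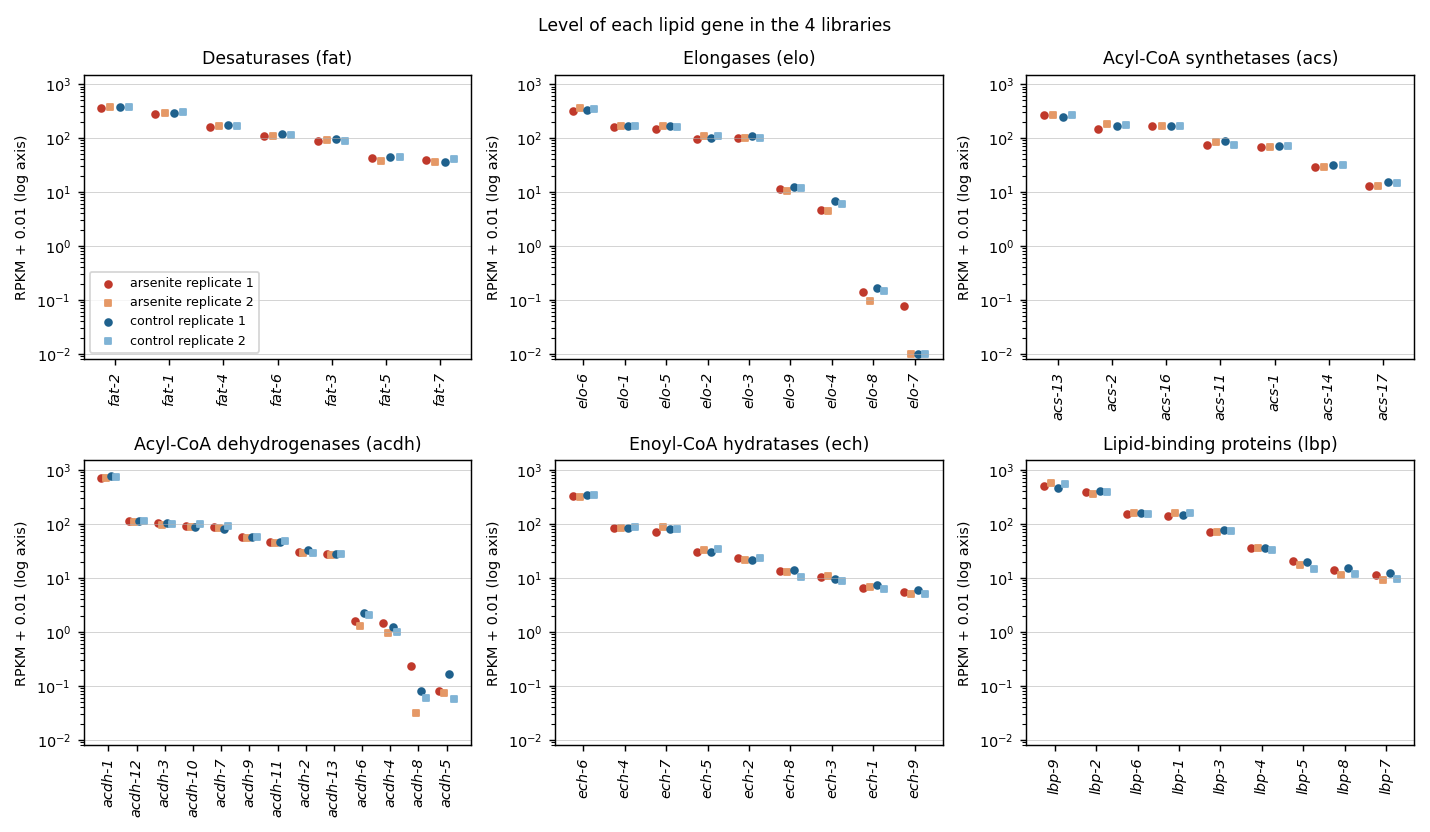
Level of each of the 54 lipid genes in RPKM (log axis, 0.01 added) in arsenite replicates 1 and 2 (red and orange) and control replicates 1 and 2 (dark and light blue), ordered within each family by mean. The 4 libraries nearly coincide for most genes, and only elo-7, elo-8, acdh-5 and acdh-8 have means under 1 RPKM.

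The desaturases introduce double bonds, and all 7 were well expressed, with means from 38.0 RPKM (fat-7) to 370.9 RPKM (fat-2). All 7 intervals lay within 1.25-fold. The family's median log2 fold change was -0.013 (2 above 0, 5 below), and its RPKM summed to 1077.2 and 1108.6 with arsenite, against 1138.2 and 1129.6 in controls. fat-2, which turns oleic into linoleic acid, had 14916 and 16425 normalised counts (read counts scaled by library size and composition) with arsenite, against 15199 and 15477 in controls. Its groups overlapped, and its fold change was 1.02 (95% interval 0.923 to 1.13). fat-1, the omega-3 desaturase that mammals lack, had 12869 and 13541 normalised counts with arsenite, against 13024 and 14006 in controls, a fold change of 0.977 (0.885 to 1.08). The neighbours fat-3 and fat-4, which act one after the other on the way to arachidonic and eicosapentaenoic acid, lie 801 bases apart on chromosome IV. fat-3 had 4298 and 4562 normalised counts with arsenite, against 4631 and 4205 in controls, and fat-4 had 8135 and 8506 with arsenite, against 8517 and 8276 in controls. Both arsenite libraries of fat-3 and one of fat-4 lay between the controls, and the log2 fold changes were 0.0038 (SE 0.070) for fat-3 and -0.013 (SE 0.059) for fat-4.

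fat-5, fat-6 and fat-7 make monounsaturated fatty acids, fat-5 from palmitic acid and the other two chiefly from stearic acid. fat-6 had 4542 and 4650 normalised counts with arsenite, against 4744 and 4728 in controls, so that its groups did not overlap, with a fold change of 0.971 (0.885 to 1.06). fat-7, which often rises or falls strongly with diet, had 1427 and 1330 normalised counts with arsenite, against 1293 and 1490 in controls. The arsenite libraries lay between the controls, and the fold change was 0.991 (0.867 to 1.13). fat-6 and fat-7 are close in sequence and only uniquely mapped reads were kept. Reads that fit both equally were therefore dropped, and the levels of both may be understated. fat-5 had the lowest fitted value of the family, -0.11 on the log2 scale (SE 0.081), from 1475 and 1304 normalised counts with arsenite, against 1470 and 1532 in controls. That value rested mainly on arsenite replicate 2: without it the log2 fold change was -0.025, and without arsenite replicate 1 it was -0.20.

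The elongases add carbon units to fatty acids, and 7 of the 9 were tested. Their median log2 fold change was 0.0052 (4 above 0, 3 below), where that of all genes was 0.0055. When counts were scaled by library size only it was -0.035, where that of all genes was -0.034. elo-1, which lengthens polyunsaturated fatty acids, had 5607 and 5957 normalised counts with arsenite, against 5594 and 5778 in controls. elo-2, which acts on palmitic acid, had 3296 and 3744 with arsenite, against 3311 and 3738 in controls, so that replicate 2 lay above replicate 1 in both groups, with a fold change of 0.999 (0.878 to 1.14). elo-5 and elo-6, which make the branched-chain fatty acids, lie 9511 bases apart on chromosome IV. elo-5 had 4689 and 5480 normalised counts with arsenite, against 5020 and 5008 in controls, and elo-6 had 9517 and 11057 with arsenite, against 9886 and 10311 in controls. In both, the arsenite libraries lay on either side of the controls, and the fold changes were 1.01 (0.900 to 1.14) and 1.02 (0.906 to 1.15). elo-3 had a log2 fold change of 0.0052 (SE 0.064), and elo-9, a weaker gene at 11.4 RPKM, one of -0.10 (SE 0.11).

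elo-4 was the lipid gene with the smallest p. It codes for an elongase and lies at III:9332269-9334274 (WBcel235), and it was weak, with 4.55 and 4.43 RPKM with arsenite, against 6.75 and 5.92 RPKM in controls. It had 132.1 and 131.8 normalised counts with arsenite, against 189.8 and 171.0 in controls, so both arsenite libraries lay below both controls. The log2 fold change was -0.45 (SE 0.14), a fold of 0.731 (0.590 to 0.905), with an unadjusted p of 0.0086 and an adjusted p of 0.426 by edgeR's quasi-likelihood test. The value stayed between -0.52 and -0.38 with each library left out in turn. Of its exon bases, 11.04% overlap a noncoding gene, C40H1.10, and 1.7% the gene ufc-1, both on the opposite strand. The libraries did not record the strand, so reads of these genes cannot be told apart there. Of the 2 untested elongases, elo-8 had 7.22 and 4.78 normalised counts with arsenite, against 8.58 and 7.48 in controls, and elo-7 had 2.06 in arsenite replicate 1 and 0 in the other 3 libraries.

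The acyl-CoA synthetases join fatty acids to coenzyme A. All 7 were tested, their means ran from 13.9 to 260.4 RPKM, and their median log2 fold change was -0.00094 (3 above 0, 4 below). acs-13, the most abundant, had 23115 and 23898 normalised counts with arsenite, against 21272 and 23303 in controls, a log2 fold change of 0.077 (SE 0.066). acs-2, a mitochondrial synthetase and a well-known target of the nuclear receptor NHR-49 in fasted worms, had 10182 and 12518 normalised counts with arsenite, against 11048 and 12000 in controls. The arsenite libraries enclosed the controls, and the fold change was 0.985 (0.855 to 1.13). Its log2 fold change was -0.18 without arsenite replicate 2 and 0.12 without arsenite replicate 1. acs-1, which activates branched-chain fatty acids made by elo-5 and elo-6, had 14007 and 14419 normalised counts with arsenite, against 14223 and 14222 in controls, and a fold change of 0.999 (0.914 to 1.09). RefSeq now gives another symbol to 2 of the 7: the table's acs-16 is the present acs-4 (F37C12.7) and its acs-14 the present acs-5 (Y76A2B.3). The table's acs-16 had 15229 and 15735 normalised counts with arsenite, against 15025 and 15447 in controls, while its acs-14 had 2018 and 2080 with arsenite, against 2112 and 2220 in controls.

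acs-17 was the synthetase with the smallest p and also the least abundant of the 7. It had 1167 and 1151 normalised counts with arsenite, against 1295 and 1314 in controls, with both arsenite libraries below both controls and close agreement of the replicates. The log2 fold change was -0.17 (SE 0.071), a fold of 0.889 (0.796 to 0.992), with an unadjusted p of 0.0379 and an adjusted p of 0.642 by edgeR's quasi-likelihood test. With one library left out at a time it ran from -0.18 to -0.16, and without either arsenite library its unadjusted p was above 0.05.

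The acyl-CoA dehydrogenases catalyse the opening oxidation step, and 11 of the 13 were tested. Their median log2 fold change was -0.0060 (5 above 0, 6 below). acdh-1 had 59987 and 60799 normalised counts with arsenite, against 63072 and 60760 in controls, so that its groups overlapped narrowly, with a fold change of 0.9754 (0.882 to 1.08). Its expression is known to follow propionate and vitamin B12, and its partner in the shunt, the hydratase ech-6, had 12821 and 12502 normalised counts with arsenite, against 12972 and 12878 in controls. Both arsenite libraries of ech-6 lay below both controls, by little, with a fold change of 0.980 (0.896 to 1.07). acdh-12, a homologue of the mammalian very long-chain enzyme, had 13769 and 13422 normalised counts with arsenite, against 13678 and 13950 in controls. acdh-3 had 4753 and 4476 with arsenite, against 4630 and 4637 in controls, and parts of its exons overlap K06A5.3 and knl-2 on the opposite strand. acdh-7 and acdh-10, which resemble the mammalian medium-chain enzyme, lie 114 bases apart on chromosome X and had log2 fold changes of 0.0064 (SE 0.082) and -0.018 (SE 0.073). acdh-11, known to restrain fat-7 by binding its fatty acid inducer in warm-adapted worms, had a log2 fold change of 0.0041 (SE 0.060).

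acdh-6 had the lowest fitted value of all lipid genes. It lies at III:8561136-8563026 and was weak, with 1.61 and 1.27 RPKM with arsenite, against 2.25 and 2.05 RPKM in controls. It had 65.01 and 52.55 normalised counts with arsenite, against 87.73 and 82.31 in controls, with both arsenite libraries below both controls. The log2 fold change was -0.54 (SE 0.19), a fold of 0.689 (0.511 to 0.929), with an unadjusted p of 0.0195 and an adjusted p of 0.518 by edgeR's quasi-likelihood test. It was -0.39 without arsenite replicate 2 and -0.69 without arsenite replicate 1, and its unadjusted p was above 0.05 without arsenite replicate 2 and without control replicate 1 (log2 fold change -0.49). acdh-4 was weaker, with 55.7 and 37.3 normalised counts with arsenite, against 45.8 and 37.4 in controls, and the interval of its fold change, 0.738 to 1.66, covered changes in either direction. The untested acdh-5 and acdh-8 had at most 9.29 normalised counts in any library. Markers of other tissues also had lower values: 3 of 3 markers of pharynx, 6 of 7 of neurons and 3 of 5 of body wall muscle lay below both controls in both arsenite libraries, as 19.1% of all genes tested did. The markers' RPKM summed to 61.5 and 59.6 with arsenite, against 74.9 and 75.4 in controls, for pharynx, to 296.9 and 287.5, against 320.6 and 310.6, for neurons, and to 661.4 and 623.2, against 690.0 and 704.1, for body wall muscle. Of the intestine's 9 markers 1 lay above and 3 below, and they summed to 2531 and 2699 RPKM with arsenite, against 2329 and 2943 RPKM in controls. Most of that sum was asp-1, at 2053 and 2237 RPKM with arsenite, against 1835 and 2412 RPKM in controls. The median log2 fold change of the 9 was -0.087. Of the 7 epidermis markers 1 lay above and 3 below, with sums of 1236 and 1121 RPKM with arsenite, against 1127 and 1174 RPKM in controls. Most of these sums was col-140, at 1038 and 944 RPKM with arsenite, against 943 and 982 RPKM in controls. The median log2 fold change of the 7 was -0.024. Of the 8 markers of germline with oocytes 3 lay above and 0 below, with sums of 3961 and 4098 RPKM with arsenite, against 3765 and 4031 RPKM in controls. None of the markers of these 6 tissues was at 0, and their part in the values of elo-4, acdh-6 and acs-17 was not tested.

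The enoyl-CoA hydratases add water to the double bond made by the dehydrogenases, and all 9 were tested. Their median log2 fold change was 0.0015 (5 above 0, 4 below), their means ran from 5.36 RPKM (ech-9) to 334.9 RPKM (ech-6), and all 9 intervals lay within 1.5-fold. ech-4 had 3450 and 3545 normalised counts with arsenite, against 3466 and 3604 in controls. ech-7 had 1824 and 2248 with arsenite, against 1965 and 2068 in controls, so that its arsenite libraries enclosed the controls. ech-1, the present ech-1.1 and a homologue of the alpha subunit of the mitochondrial trifunctional protein, had 502.5 and 543.6 normalised counts with arsenite, against 555.9 and 488.5 in controls. Its fold change was 1.001 (0.854 to 1.17). The largest positive value among all lipid genes belonged to ech-3, at V:8022217-8023317, with 315.8 and 328.7 normalised counts with arsenite, against 283.2 and 265.1 in controls. Both arsenite libraries lay above both controls, and the log2 fold change of 0.23 (SE 0.11) had an unadjusted p of 0.0606 and an adjusted p of 0.714 by edgeR's quasi-likelihood test. The gene F43H9.3 on the opposite strand overlaps 12.3% of the exon bases of ech-3. ech-3, acdh-4, elo-9 and others outside the rule for named genes were picked after their values were seen.

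The lipid-binding proteins are small carriers of fatty acids, and these 9 genes were the shortest of the 6 families by mean transcript length, from 414 to 762 nt. Their median log2 fold change was 0.042 (5 above 0, 4 below), but -0.016 when the fold change was corrected for transcript length. lbp-9 had 18240 and 20851 normalised counts with arsenite, against 15898 and 19544 in controls, so that replicate 2 was above replicate 1 in both groups and the groups overlapped. Its log2 fold change of 0.14 (SE 0.099) depended on the control library used: it was -0.0022 without control replicate 1 and 0.30 without control replicate 2. In that last setting edgeR's exact test called lbp-9, with an adjusted p of 0.0229, alone among the lipid genes, while it called 1.83% of all genes. lbp-2 had 9700 and 9348 normalised counts with arsenite, against 9968 and 9882 in controls, with both arsenite libraries below both controls and a fold change of 0.960 (0.877 to 1.05). lbp-6 had 2724 and 2875 with arsenite, against 2665 and 2706 in controls, with both arsenite libraries above both controls. Its log2 fold change of 0.060 (SE 0.066) was -0.016 with the length correction.

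lbp-8 carries a lipid signal from the lysosome to the nucleus in worms that overexpress the lipase LIPL-4. It had 277.6 and 225.5 normalised counts with arsenite, against 288.9 and 230.9 in controls, so that replicate 2 was below replicate 1 in both groups. The fold change was 0.964 (0.764 to 1.21). lbp-5 and lbp-7 showed the same order of replicates, at 322.0 and 278.0 with arsenite, against 301.3 and 233.0 in controls, for lbp-5, and 154.8 and 129.9 with arsenite, against 163.1 and 128.3 in controls, for lbp-7. lbp-1, lbp-2 and lbp-3, which lie in a row on chromosome X with gaps of 986 and 797 bases and are predicted to be secreted, had log2 fold changes of 0.042 (SE 0.082), -0.060 (SE 0.058) and -0.022 (SE 0.062). lbp-4 had 701.7 and 702.2 normalised counts with arsenite, against 681.8 and 623.2 in controls, and a log2 fold change of 0.10 (SE 0.088).

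**Figure D3:**
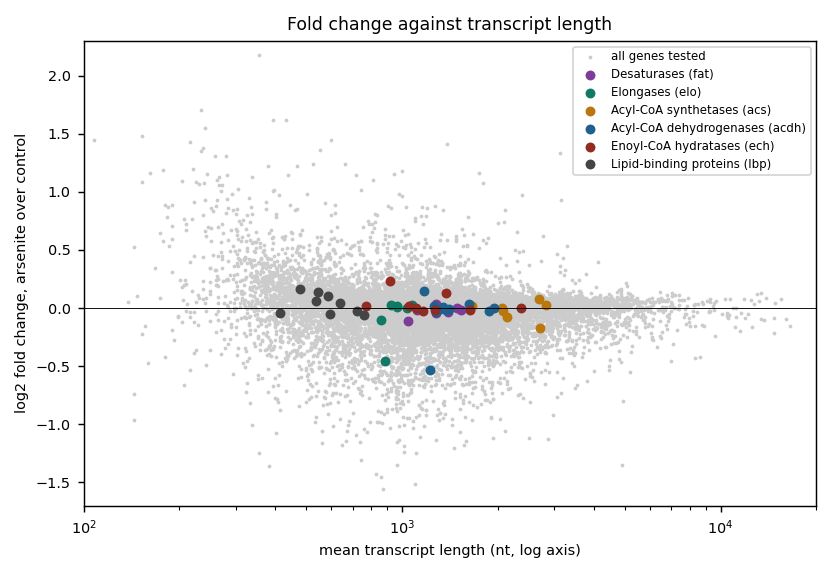
Log2 fold change (arsenite over control) against mean transcript length (nt, log axis) for all 13776 genes tested (grey) and the 50 tested lipid genes, coloured by family. The lipid-binding proteins, at 414 to 762 nt, are the shortest lipid genes, and outside elo-4 and acdh-6 the lipid genes lie near 0 along the whole range of lengths.

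Overlap between the groups was counted for the tested lipid genes only, which leaves out elo-8, with both arsenite libraries below both controls. Of the 50 tested, 4 (acdh-13, ech-3, lbp-4 and lbp-6) had both arsenite libraries above both controls, where 17.1% of all genes tested did. Another 9 (fat-6, elo-4, elo-9, acs-14, acs-17, acdh-6, ech-6, lbp-2 and lbp-3) had both below, where 19.1% of all genes did. In 37 of the 50 the groups overlapped, as they did in 8781 of all 13776 genes tested. These counts moved with the scaling: with library size alone 1 lay above and 16 below, and with the length correction 2 above and 10 below. The shares of all genes under these 2 scalings are not given here. With library size alone the median log2 fold change of all genes was also lower, at -0.034. With 2 libraries against 2 the smallest two-sided p of an exact permutation test is 0.33, so these counts carry no test. Replicate 2 lay above replicate 1 in both groups in 15 of the 50 (30%, against 27.4% of all genes) and below it in both groups in 13 (26.0%, against 30.8%). By family, replicate 2 lay above in both groups in 2 of 7 desaturases, 3 of 7 elongases and 4 of 7 synthetases. The same held for 0 of 11 dehydrogenases, 3 of 9 hydratases and 3 of 9 lipid-binding proteins. In the same order of families, replicate 2 lay below in both groups in 0, 2, 0, 3, 3 and 5. These families are small, and differences between them were not tested.

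**Figure D4:**
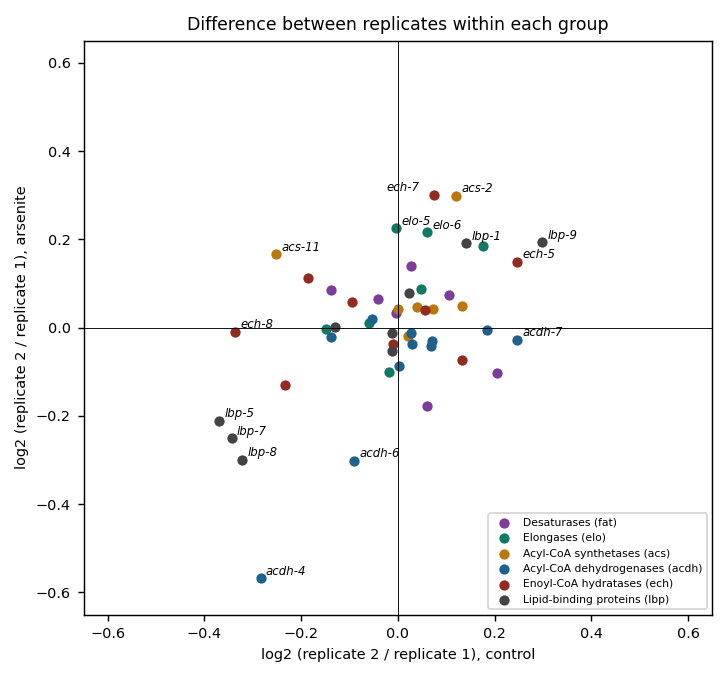
Log2 ratio of replicate 2 to replicate 1 within the arsenite group (vertical axis) against the same ratio within the control group (horizontal axis) for the 50 tested lipid genes, coloured by family. Genes at the upper right (15, among them lbp-9, acs-2 and ech-7) are higher in replicate 2 of both groups, and those at the lower left (13, among them lbp-5, lbp-7, lbp-8 and acdh-4) are lower.

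Which genes came closest to a call changed with the library left out. Without control replicate 1, 3 lipid genes were higher at an unadjusted p under 0.05 (ech-8, lbp-5 and acs-11), where 7.29% of all genes tested were, and without control replicate 2 another 3 (lbp-9, acs-13 and acdh-7), where 6.92% were. Neither count was above the share of all genes. None of these 6 was at that p with all 4 libraries. ech-8, for example, had 592.3 and 588.5 normalised counts with arsenite, against 600.8 and 475.7 in controls, and its log2 fold change of 0.13 (SE 0.12) was -0.025 without control replicate 2 and 0.31 without control replicate 1.

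The table held 8 of the lipid genes with several transcripts: acs-1, acdh-1, acdh-2, acdh-11, acdh-12, acdh-13, lbp-3 and lbp-9. A gene's count is the sum over its transcripts, so reads shared by transcripts were counted more than once there. Taken one by one, the transcripts gave the same picture. Those of acdh-1 had log2 fold changes of -0.030 and -0.033, those of lbp-9 had 0.147 and 0.147, and those of acdh-13 had 0.028, 0.028 and 0.066. The transcripts of lbp-3 of 986 and 453 nt had -0.031 (SE 0.064) and -0.00081 (SE 0.067). No transcript of these genes passed the threshold (edgeR's quasi-likelihood test over all transcripts, smallest adjusted p 0.801).

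Relatives of these genes stood in the table under sequence names, which the selection by name did not take. By RefSeq there were 22 of them, mostly acs genes, with 3 lipases (lipl-6, lipl-7 and lipl-8), the reductase fard-1 and ech-1.2, and 16 were tested. The lipases lipl-1 to lipl-5, lipl-4 among them, were not analysed here. Also in these 16 edgeR's quasi-likelihood test called 0, with a smallest adjusted p of 0.507, and its exact test, its likelihood ratio test and DESeq2 called 0. The median log2 fold change was -0.081, with 3 above 0 and 13 below. Over all 13776 genes tested it was 0.0055, with 6634 below 0. At an unadjusted quasi-likelihood p under 0.05, 0 relatives were higher (2.16% of all genes) and 2 lower (5.05%). In 6 of the 16 both arsenite libraries lay below both controls (19.1% of all genes tested) and in 1 above (17.1%). The median level was 2.40 RPKM over all 22 relatives, against 11.9 RPKM for all genes tested. F28D1.9 (acs-20), of the fatty acid transport protein type and needed for the surface barrier of the worm, had 960.7 and 943.9 normalised counts with arsenite, against 1138 and 1036 in controls. Its log2 fold change was -0.19 (SE 0.080), with an unadjusted p of 0.0389 and an adjusted p of 0.648 by edgeR's quasi-likelihood test. F47G6.2, which now carries the symbol acs-16, had 109.4 and 112.7 normalised counts with arsenite, against 152.6 and 144.3 in controls, with a log2 fold change of -0.42 (SE 0.15), an unadjusted p of 0.0168 and an adjusted p of 0.507 by the same test. D1009.1 (acs-22), a close relative of acs-20, had 1943 and 1858 with arsenite, against 1962 and 1925 in controls. Y71H10A.2 (fard-1), which makes the fatty alcohols of ether lipids, had 1279 and 1219 normalised counts with arsenite, against 1355 and 1313 in controls, a log2 fold change of -0.095 (SE 0.072) with no overlap of the groups. The abundant ones were close to controls: C36A4.9 (acs-19), an acetyl-CoA synthetase, had a log2 fold change of 0.027 (SE 0.073) at 260.3 RPKM, and T08B2.7 (ech-1.2) one of -0.017 (SE 0.063) at 154.8 RPKM.

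A list of 65 other genes of the pathway gave the same result. The table held 59 of them, all tested. Of these, 0 passed the threshold by edgeR's quasi-likelihood, exact or likelihood ratio test or by DESeq2. The shares of all genes were 0.0%, 1.01%, 1.14% and 0.231% in that order. At an unadjusted p under 0.05, 1 was higher (2.16% of all genes tested) and 1 lower (5.05%). Their median log2 fold change was -0.027 (21 above 0, 38 below), and 52 of the 59 intervals (88.1%, against 48.5% of all genes) lay within 1.25-fold. These shares were not matched for abundance, as the median level was 48.1 RPKM on the list and 11.9 RPKM for all genes tested. Among the 11 regulators, sbp-1, the worm's SREBP, had a log2 fold change of -0.051 (SE 0.072), mdt-15, its Mediator partner, one of -0.030 (SE 0.058), and nhr-49, the nuclear receptor that governs fasting and desaturase genes, one of -0.028 (SE 0.058). nhr-80, a nuclear receptor that controls fat-6 and fat-7, was the gene at an unadjusted p under 0.05 on the higher side. It had 467.4 and 465.3 normalised counts with arsenite, against 370.9 and 399.8 in controls, with a log2 fold change of 0.28 (SE 0.099), an unadjusted p of 0.0190 and an adjusted p of 0.518 by edgeR's quasi-likelihood test. fat-6 and fat-7, given above, had log2 fold changes of -0.043 and -0.013 in the same libraries.

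At the start of synthesis, pod-2, acetyl-CoA carboxylase, had 39375 and 43221 normalised counts with arsenite, against 37995 and 42810 in controls, and fasn-1, fatty acid synthase, had 21551 and 22647 with arsenite, against 22064 and 23072 in controls. Both overlapped between groups, with log2 fold changes of 0.032 (SE 0.078) and -0.030 (SE 0.062). All 9 genes of synthesis and all 7 of storage on the list had intervals within 1.25-fold. Of the genes of synthesis 7 were above 0 and 2 below (median 0.014), and of those of storage 4 were above and 3 below (median 0.014). Of the 9 genes of mitochondrial oxidation, among them the carnitine palmitoyltransferases, 3 were above 0 and 6 below, with a median log2 fold change of -0.022. Of the 16 genes of peroxisomal oxidation 13 were below 0 (median -0.041), and of the 7 genes listed for the breakdown of propionate all 7 were (median -0.028). None of the listed genes passed the threshold. Of all 13776 genes tested, 6634 were below 0. prx-5, the import receptor of peroxisomes, had 908.1 and 916.2 normalised counts with arsenite, against 1057 and 1013 in controls, a log2 fold change of -0.18 (SE 0.076) with an unadjusted p of 0.0381 and an adjusted p of 0.642 by edgeR's quasi-likelihood test. With scaling by library size alone all these medians were lower, as was that of all genes (-0.034).

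The lipid genes lie on all chromosomes, 16 of them on chromosome IV, 10 on V, 8 on I, 7 each on II and III and 6 on X. Some are neighbours: besides the pairs given above, fat-1 and fat-2 lie 5061 bases apart, ech-9 and ech-8 lie 1296 bases apart, and lbp-6 and lbp-5 lie 1890 bases apart. Neighbours did not share a fitted direction in each case, as fat-1 (-0.033) and fat-2 (0.031) or lbp-1 (0.042) and lbp-2 (-0.060) show, and the 95% intervals of all 4 included 0. Exons of 19 of the 54 overlap another gene, 15 of them one on the opposite strand, and the largest such overlap was that of elo-5 with F41H10.3, 17.6% of its exon bases.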

How the data were processed

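The authors made 4 libraries with an mRNA kit that leaves the strand unmarked, and aligned the reads with Bowtie. Only reads with a single place in the genome or across exon junctions were kept and assigned to RefSeq transcripts. CASAVA, Bowtie and the build WBcel235 are named by the submitters' processing notes. For these tools the sources used here give no version. Deposited by the authors were read counts, as whole numbers without normalisation, and RPKM values for 19912 genes and 23858 transcripts. RPKM was used for levels only. Each gene's count equals the sum over its transcripts.

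The gene counts went into edgeR 4.0.16 in R 4.3.3. Weak genes were removed by filterByExpr (minimum count 10, minimum total 15), leaving 13776. TMM factors were 0.9993 and 0.9739 for arsenite and 1.035 and 0.9926 for controls. glmQLFTest compared the conditions with no other term (prior count 0.125 in glmQLFit), and p-values were adjusted by Benjamini-Hochberg over these genes, with a threshold of 0.05. The biological coefficient of variation was 6.06%. A standard error was derived as the log2 fold change divided by the root of its F value, and the 95% interval from it with the degrees of freedom of the test. Normalised counts divide each count by its TMM-scaled library size and multiply it by the mean of these sizes. The steps were tested on simulated data. Precision for weak genes is limited by the depth, 30583832 to 35218389 reads per library. These read numbers were derived from the deposited counts and RPKM values.

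All 54 lipid genes matched RefSeq (WBcel235), 3 of them under another symbol, and exon overlaps were read from the Ensembl annotation of the same build.

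As alternatives, the exact and likelihood ratio tests of edgeR were run, and DESeq2 1.42.0. RLE factors or the library size alone replaced TMM, and the filter was dropped or set to at least 1 CPM in 2 libraries. The replicate number was added as a block, and transcript length was corrected for by loess (span 0.5, centred on the median of each library) without and with that block. Transcripts were tested in place of genes, and each library was left out once; the exact test without each library was added after seeing the data. The genes, lists and tests were chosen with earlier results of these data known. Named by rule were all desaturases, the 3 most abundant genes of every other family, and a fixed set of lipid genes and regulators. The rule also named every lipid gene and every gene of the pathway list at an unadjusted quasi-likelihood p under 0.05. That last part did not cover the relatives, so F47G6.2 is not among the named genes.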

Additional observations from a re-analysis of the deposited data

How the results depend on the processing

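No lipid gene was called under any alternative run, with one exception: edgeR's exact test without control replicate 2 called 1 (lbp-9, log2 fold change 0.298, adjusted p 0.0229), so that with a library left out the number called as higher ran from 0 to 1. Calls over all genes varied more. The quasi-likelihood test called 0 genes higher and 0 lower, the exact test 54 and 85, the likelihood ratio test 58 and 99, DESeq2 8 and 22, the fit with no filter on low counts 35 and 44, and the fit with the replicate block 30 and 50. With a library left out, the quasi-likelihood test called 100 and 58 (arsenite replicate 1 left out), 6 and 8 (arsenite replicate 2), 121 and 72 (control replicate 1) or 1 and 1 (control replicate 2). Samples of the same replicate number deviated together with a correlation of 0.052 across all genes tested. The reported fit did not pair the samples by number. That correlation cannot settle whether they are paired, as it weighs weak and abundant genes alike. The fit with the replicate block called 0 lipid genes.

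At an unadjusted p under 0.05 the count of lipid genes that were higher was 1 with the replicate block (lbp-9) and ran from 0 to 3 with a library left out, 3 if that was either control library. The count that were lower was 1 with DESeq2 (elo-4) and ran from 1 (without arsenite replicate 2) to 3 (without control replicate 2). With library sizes alone the median log2 fold change of lipid genes was -0.040, where that of all genes was -0.034. Without overlap between groups 1 lipid gene then lay above controls and 16 below, where the length correction gave 2 above. The shares of all genes without overlap are not given for these scalings. With a library left out the median ran from -0.018 to 0.0091.

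Of the 418 comparisons of the 38 named genes with all libraries kept, 399 kept direction and side of the threshold, and of the 304 with a library left out 237 did. The 20 genes that changed sign under some alternative had log2 fold changes of at most 0.142 in size with the reported test. With library sizes alone fat-2 was at -0.0089, fat-3 at -0.038, elo-6 at -0.013, elo-1 at -0.015, elo-5 at -0.020, acs-16 at -0.016, ech-7 at -0.026, ech-1 at -0.040 and pod-2 at -0.0067. With at least 1 CPM in 2 libraries fat-3 was at -7.97e-05 and ech-1 at -0.0024. With the length correction lbp-6 was at -0.0155 without the replicate block and -0.0156 with it, and ech-7 at -0.0056 with it. elo-2 was at 0.0018 with DESeq2, 0.0020 with RLE factors, 0.0031 with the length correction, 0.0021 with that and the replicate block, and 0.0039 in the transcript table. With a library left out, fat-1 ran from -0.087 to 0.020, fat-2 from -0.040 to 0.101, fat-3 from -0.064 to 0.073, fat-4 from -0.046 to 0.021, fat-7 from -0.115 to 0.092, elo-6 from -0.086 to 0.133, elo-1 from -0.020 to 0.069, elo-5 from -0.097 to 0.131, acs-2 from -0.179 to 0.122, acs-16 from -0.00069 to 0.049, acdh-3 from -0.047 to 0.037, ech-4 from -0.046 to 0.013, ech-7 from -0.144 to 0.159, lbp-9 from -0.0023 to 0.298, elo-2 from -0.096 to 0.090, ech-1 from -0.087 to 0.097, lbp-8 from -0.206 to 0.119, pod-2 from -0.054 to 0.120 and fasn-1 from -0.067 to 0.0073. The causes were not tested. With 2 libraries per group, changes of weak genes such as acdh-4 are poorly bounded at this depth, and elo-7, elo-8, acdh-5 and acdh-8 could not be tested.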
